A study of Rattus norvegicus albus with 14 samples.

Results

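The genes described here encode the enzymes and carriers of fatty acid oxidation and ketone use, together with Pdk4 and the uncoupling proteins Ucp2 and Ucp3, in cultured heart muscle cells exposed to rosiglitazone. They were taken by gene symbol from a list of 40 genes chosen by function, with 1 row per Ensembl gene. Earlier results of these data were known when the list was chosen, so its shares beside those of all genes are descriptions. Of the 40, 39 had a row in the count tables, which hold 32545 genes, and 37 passed the filter on low counts, among 15655 genes tested. Acaa1a was not analysed here, since no row carried that symbol. Echs1, an enoyl-CoA hydratase, and Ucp3 were in the tables and did not pass the filter.

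The cells were neonatal rat ventricular myocytes, a primary culture of the heart's pump muscle from Sprague-Dawley pups 1 day old, and their RNA was sequenced in bulk. They were preplated to remove fibroblasts, pooled, and kept in serum-free medium with insulin, transferrin and selenium. Cells of every group received 1% DMSO, alone for 0.5 h (1 library) or with 10 µmol/L rosiglitazone for 0.5, 24 or 48 h (2 libraries each). Each library was deposited as 2 splits, which were summed, so the 14 samples are 7 libraries. Vehicle libraries of 24 and 48 h were not analysed here, so the effects of rosiglitazone and of time in culture cannot be told apart in any comparison with 24 or 48 h. Whether the 2 libraries of a group stand for separate cultures is not stated in the labels, and p-values therefore cover the spread between the libraries at hand, possibly a technical one.

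Fatty acids are activated to acyl-CoA by the acyl-CoA synthetases, carried into mitochondria as carnitine esters, and shortened there in repeated rounds of dehydrogenation, hydration, a second dehydrogenation and thiolysis. Electrons pass to the respiratory chain through the electron transfer flavoproteins, while peroxisomes shorten very long and branched chains. The heart takes much of its energy from this route, increasingly so after birth, and also burns ketone bodies. Rosiglitazone is an agonist of the nuclear receptor PPARγ, and many genes of this route are known targets of the PPAR family.

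Levels are given as CPM, read counts scaled to a common total, with library sizes set by the TMM method of edgeR. They are not divided by transcript length, so they are compared between libraries and not between genes. Fold changes are edgeR log2 fold changes with their standard error (SE), and adjusted p-values are Benjamini-Hochberg values over all 15655 genes, called below 0.05. Libraries of 2 groups are said not to overlap when all those of one group lie above, or all below, those of the other.

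Libraries held 10886559 to 28074620 counts. The labels describe over 98% myocytes, and the 12 cardiomyocyte markers examined were all detected in every library. Their summed level was 8656 CPM in the DMSO library, 15661 and 14897 CPM at 0.5 h of rosiglitazone, 13773 and 3202 CPM at 24 h, and 392 and 1750 CPM at 48 h. Not all 12 went with this sum at 24 h. In 24 h library 1, Myh6 had 385 CPM, against 1212 and 1209 CPM at 0.5 h of rosiglitazone. Tnni3 had 945 CPM there, against 357 and 390 CPM at 0.5 h. In bulk RNA, fewer cells of a type and less RNA per cell cannot be told apart. The fibroblast markers examined, 7 genes, summed to 51611 CPM in the DMSO library, 50060 and 51537 CPM at 0.5 h, 35043 and 32623 CPM at 24 h, and 17355 and 33638 CPM at 48 h. At 0.5 h that sum is mostly the collagens Col1a1 and Col3a1, and not all its genes went with it over time. Dcn, which encodes decorin, had 8477 and 4549 CPM at 48 h, against 808 and 994 CPM at 0.5 h of rosiglitazone (7.23-fold, edgeR adjusted p = 0.015), and Pdgfra and Lum were higher at 48 h without overlap but not called (edgeR adjusted p = 0.089 and 0.34). The 13 genes of the mitochondrial genome took 2.13% of counts in the DMSO library, 2.24% and 2.04% at 0.5 h, 3.29% and 0.801% at 24 h, and 0.9% and 0.604% at 48 h.

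Summed over the list, levels were higher at 24 and 48 h than at 0.5 h, and at 48 h this rested in part on the abundant genes Hadha and Hadhb. The 39 measured genes together took 4298 CPM in the DMSO library and 4011 and 4568 CPM at 0.5 h of rosiglitazone. The same sum was 9140 and 6141 CPM at 24 h, and 5276 and 6179 CPM at 48 h, so every 24 h and 48 h library lay above every 0.5 h library. Without Hadha and Hadhb, 48 h library 1 no longer did so: the other 37 genes took 3524 CPM there and 3639 CPM in 0.5 h library 2. These 37 genes took 6510 and 3940 CPM at 24 h and 4071 CPM in 48 h library 2, still above every 0.5 h library. Of the 8 roles, 3 had sums in this order (activation, the mitochondrial spiral and the electron transfer flavoproteins) and 5 did not. In the carnitine shuttle, for example, 48 h library 1 had 458 CPM, below 0.5 h library 2 at 517 CPM and the DMSO library at 474 CPM. Pdk4 and the uncoupling proteins summed to 181 to 218 CPM in the DMSO and 0.5 h libraries and 288 CPM in 24 h library 1. Their sum was lower in 24 h library 2 and the 48 h libraries, at 144.7, 85.9 and 141 CPM. That sum was mostly Ucp2, and Pdk4 itself was higher in every later library than at 0.5 h. The ketone genes Acat1, Bdh1 and Oxct1 had a sum of 361 CPM in the DMSO library, 367 and 389 CPM at 0.5 h, 342 and 203 CPM at 24 h, and 172 and 260 CPM at 48 h. The heat map of all 37 tested genes shows that the high values at 24 h were spread over most roles and were strongest in library 1.

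At 0.5 h, rosiglitazone was compared with DMSO, the only pair of groups that differ by the drug alone. No gene of the list was called by edgeR, and 0% of all genes tested were. None of the 37 had an unadjusted edgeR p below 0.05, a mark passed by 0.607% of all genes, and DESeq2 called none of them and 0.0128% of all genes. The median log2 fold change was -0.01 over the 37 genes, from -1.18 for Abcd2 to 0.79 for Pdk4, and 0.01 over all genes. Both rosiglitazone libraries lay above the single DMSO library for 9 of the 37 genes, against 30.2% of all genes, and below it for 10, against 31.8%. The count of 9 became 27 without rosiglitazone replicate 1 (73% of the list, against 48.6% of all genes), and the count of 10 became 28 without rosiglitazone replicate 2 (75.7%, against 49.4%). All 12 cardiomyocyte markers lay above the DMSO library in both rosiglitazone libraries and all 8 macrophage markers lay below it, with macrophage sums of 147 and 186 CPM with rosiglitazone, against 502 CPM with DMSO. The part of these shifts in the values of single genes was not tested.

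At 24 h against 0.5 h of rosiglitazone, no gene of the list was called by edgeR in either direction. Only 0.0511% of all genes were called higher and 0.0447% lower. At an unadjusted edgeR p below 0.05, 12 of the 37 genes were higher (32.4%, against 6.55% of all genes) and 2 were lower, Acox3 and Oxct1 (5.41%, against 9.12%). DESeq2 called 9 higher, namely Acsl1, Cpt1b, Crat, Acadl, Hadha, Hadhb, Etfa, Etfdh and Pex11a, against 2.91% of all genes it tested, and none lower, against 5.48%. In the authors' deposited table, 18 of the 38 genes with an adjusted p-value were called higher (17.8% of all genes in that table) and 5 lower (21.2%). In each of the authors' tables the 2 splits of a library are separate columns, per the file headers. If splits were counted as replicates there, the spread between libraries is understated and the p-values are too small. Without overlap, 18 of the 37 genes were higher at 24 h (48.6%, against 21.2% of all genes) and 5 lower (against 28.9%). The median log2 fold change was 0.56 over the list and -0.03 over all genes. That median was 0.11 without 24 h replicate 1 and 0.89 without 24 h replicate 2. Without 24 h replicate 1, 14 genes lay below the 0.5 h libraries instead of 5 (37.8%, against 45% of all genes), and 8 did so without 0.5 h replicate 1 (21.6%, against 35.1%). Without 24 h replicate 2, 29 lay above them (78.4%, against 38.6%) and edgeR called 7 genes of the list (18.9%, against 3.22%). Without 24 h replicate 1 it called 2 (5.41%, against 6.52%).

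At 48 h against 0.5 h, edgeR called 2 genes of the list higher, Acsl4 and Hadha, and none lower. Of all genes, 1.97% were called higher and 4.62% lower. At an unadjusted p below 0.05, 5 of the 37 were higher (Acsl4, Hadha, Hadhb, Etfa and Pex11a, against 9.65% of all genes) and 2 lower (Hadh and Oxct1, against 13.3%). DESeq2 called 4 higher (Acsl4, Hadha, Hadhb and Pex11a, against 6.06% of all genes) and 2 lower (Hadh and Oxct1, against 12%). Without overlap, 12 were higher (32.4%, against 28.3%) and 11 lower (29.7%, against 34.4%), shares close to those of all genes. The median log2 fold change was 0.13 over the list and -0.07 over all genes. The count of 12 became 23 without 48 h replicate 1 (62.2%, against 36.4% of all genes) and 20 without 0.5 h replicate 2 (54.1%, against 34.5%).

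Between 48 h and 24 h, edgeR called 0% of all genes and none of the list. At an unadjusted p below 0.05, Acsl4 alone was higher, against 2.8% of all genes, and Acsl1, Cpt1b, Crat and Etfdh were lower, against 5.34%. DESeq2 called Acsl1 lower, against 2.51% of all genes, and none of the list higher, against 0.969%. In the authors' deposited table, a total of 2 of the 38 genes were called higher (against 6.99%) and 10 lower (against 9.46%). Acsl4 and Acox3 lay higher at 48 h without overlap, against 14.5% of all genes, and 8 genes lay lower, against 14.6%. The 8 became 27 without 24 h replicate 2 (73% of the list, against 38.9% of all genes) and 21 without 48 h replicate 2 (56.8%, against 27%). The 2 became 14 without 24 h replicate 1 (37.8%, against 32%), 6 without 48 h replicate 1 (16.2%, against 25.1%) and 5 without 48 h replicate 2 (13.5%, against 28.6%). The median log2 fold change was -0.34 over the list and -0.01 over all genes. It was 0.05 without 24 h replicate 1, so its sign rested on that library.

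**Figure D1:**
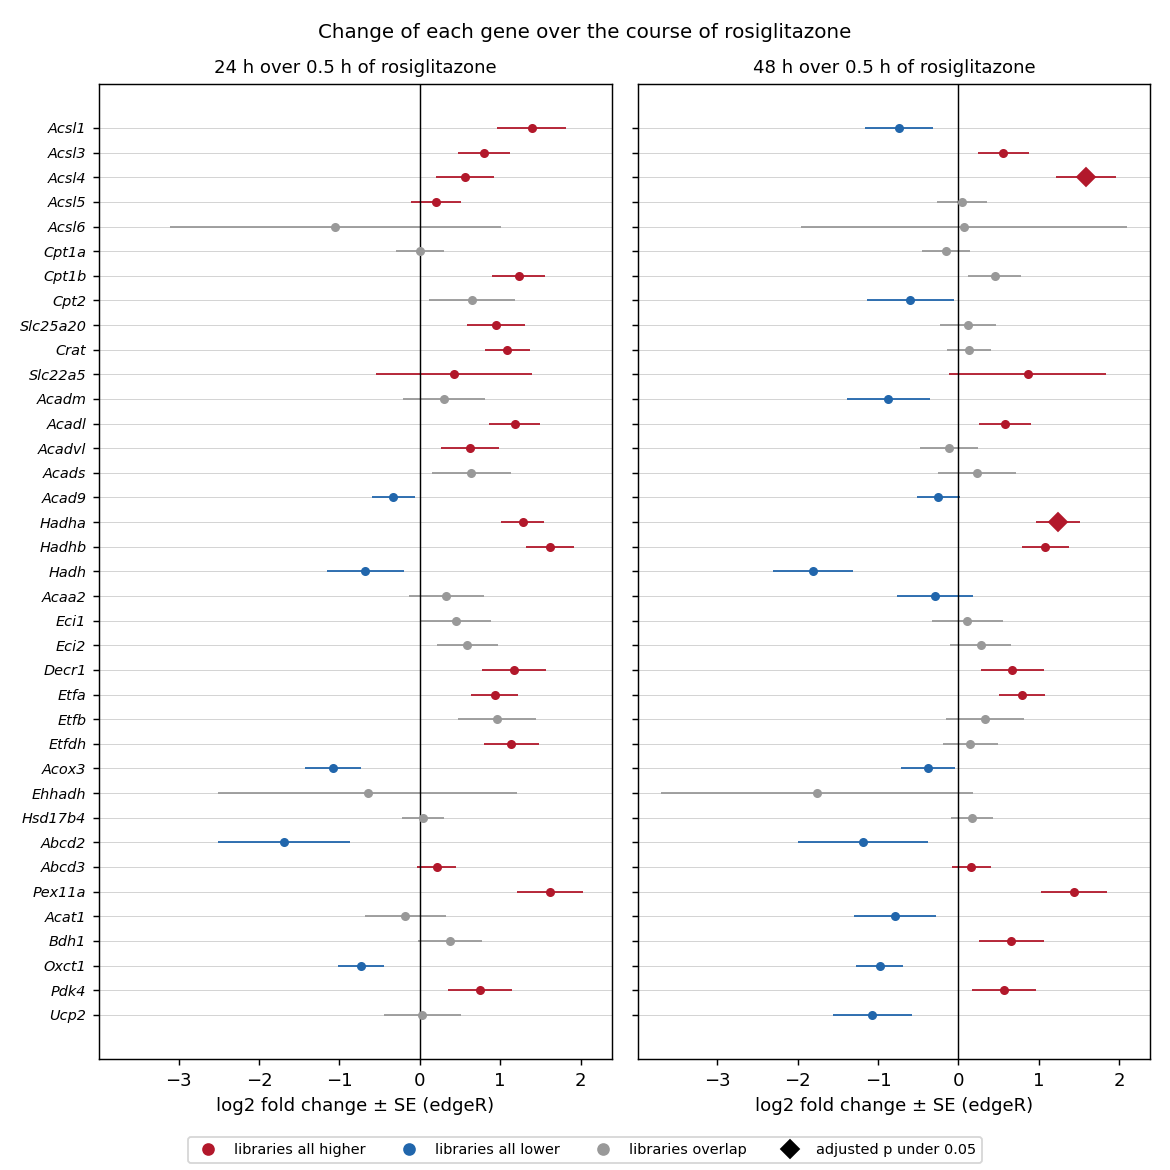
edgeR log2 fold change ± SE of each of the 37 tested genes at 24 h (left) and 48 h (right) of rosiglitazone over 0.5 h, with colour marking libraries that lie all higher, all lower or overlapping. Most points lie right of 0 at 24 h, with 28 of 37 above it, and 23 of 37 do so at 48 h, where the diamonds mark Acsl4 and Hadha, the genes with an adjusted p below 0.05. Both panels use the same 0.5 h libraries.

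Of the long-chain acyl-CoA synthetases, Acsl1 had its own lowest values at 48 h and Acsl4 its own highest. Acsl1, the main isoform of heart muscle, had 165 CPM in the DMSO library, 151 and 171 CPM at 0.5 h, 561 and 282 CPM at 24 h, and 67.0 and 126 CPM at 48 h. Both 24 h libraries were above all others and both 48 h libraries below all others. The log2 fold change of Acsl1 was 1.39 ± 0.43 at 24 h against 0.5 h (edgeR adjusted p = 0.19) and -2.13 ± 0.44 at 48 h against 24 h (edgeR adjusted p = 0.28). DESeq2 gave adjusted p-values of 0.037 and 0.00066 for the same contrasts.

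Acsl4, which prefers arachidonic acid, had 173 CPM with DMSO, 145 and 149 CPM at 0.5 h, 188 and 245 CPM at 24 h, and 588 and 299.9 CPM at 48 h. The 3 times of rosiglitazone did not overlap and their order was 0.5, 24 and 48 h. At 48 h Acsl4 rose to 3.02-fold the level at 0.5 h, with a log2 fold change of 1.59 ± 0.37 (edgeR adjusted p = 0.048). The call was lost without DMSO replicate 1 (adjusted p = 0.056), without 0.5 h replicate 1 (0.31) or replicate 2 (0.26), and without 48 h replicate 1 (0.22), where the log2 fold change was 0.99. Lower by 0.24 on the log2 scale at 0.5 h against DMSO in the edgeR fit (SE 0.44, adjusted p = 1), Acsl4 was called lower there in the authors' deposited table, at -0.23 with an adjusted p of 0.02.

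The remaining synthetases had smaller differences. Acsl3, found at the endoplasmic reticulum and lipid droplets, had 67.8 CPM with DMSO, 77.6 and 71.9 CPM at 0.5 h, 166 and 94.7 CPM at 24 h, and 107 and 114 CPM at 48 h, all later libraries being above the 0.5 h ones. Its log2 fold change at 24 h was 0.80 ± 0.32 (edgeR unadjusted p = 0.038, adjusted p = 0.29). Acsl5 ranged from 126 to 212 CPM over the 7 libraries. Acsl6, best known from brain, had at most 1.13 CPM in any library and 0 counts in 24 h library 2, and its fold changes had an SE of 2.03 or more.

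Entry into the carnitine shuttle had 1 isoform with high 24 h values and 1 without. Carnitine palmitoyltransferase 1, which makes acylcarnitine at the outer mitochondrial membrane, has a liver form, Cpt1a, and a muscle form, Cpt1b. Cpt1b had 77.2 CPM with DMSO, 88.5 and 98.5 CPM at 0.5 h, 251 and 189 CPM at 24 h, and 94.0 and 161 CPM at 48 h. Its 24 h libraries lay above all others, with a log2 fold change of 1.23 ± 0.33 over 0.5 h (edgeR adjusted p = 0.15, DESeq2 adjusted p = 0.023). Cpt1a had 169 CPM with DMSO, 152 and 168 CPM at 0.5 h, 177 and 141 CPM at 24 h, and 175 and 112 CPM at 48 h, with overlapping libraries at every step of the time course. Against 0.5 h, the log2 fold change of Cpt1a at 24 h was 0.00 ± 0.30 (edgeR adjusted p = 1). The difference between the 2 isoforms in their response was not tested.

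Crat and Slc25a20 also had their highest values at 24 h. Crat, carnitine acetyltransferase, which buffers acetyl groups, had 88.6 CPM with DMSO, 83.3 and 92.3 CPM at 0.5 h, 212 and 163 CPM at 24 h, and 83.8 and 108 CPM at 48 h. Its log2 fold change was 1.09 ± 0.28 at 24 h against 0.5 h (edgeR adjusted p = 0.13) and -0.96 ± 0.27 at 48 h against 24 h (edgeR adjusted p = 0.36). Slc25a20, the carnitine-acylcarnitine carrier of the inner membrane, had 84.3 CPM with DMSO, 77.8 and 98.7 CPM at 0.5 h, 221 and 120.3 CPM at 24 h, and 81.5 and 110.4 CPM at 48 h. For both genes the 24 h libraries lay above all others, and 24 h library 1 was the higher of the pair.

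Cpt2, which turns acylcarnitine back into acyl-CoA, rested on 1 library: it had 125 and 46.5 CPM at 24 h, against 51.0 and 58.5 CPM at 0.5 h. At 48 h it had 22.0 and 50.7 CPM, both below the 0.5 h libraries. Slc22a5, the carnitine importer of the plasma membrane, stayed between 1.06 and 2.58 CPM in all 7 libraries.

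The mitochondrial trifunctional protein, which carries out the last 3 steps of each round on long chains, had higher levels in every later library. Hadha encodes its α subunit and Hadhb its β subunit, the thiolase. The genes neighbour each other in the RefSeq annotation of the GRCr8 assembly. Hadha had 401 CPM with DMSO, 361 and 398 CPM at 0.5 h, 972 and 873 CPM at 24 h, and 824 and 972 CPM at 48 h. Hadhb had 506 CPM with DMSO, 443 and 531 CPM at 0.5 h, 1658 and 1328 CPM at 24 h, and 928 and 1136 CPM at 48 h. In both genes each of the 4 later libraries was above each of the 3 libraries at 0.5 h.

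At 48 h Hadha rose to 2.37-fold the level at 0.5 h (log2 fold change 1.24 ± 0.27, edgeR adjusted p = 0.041, DESeq2 adjusted p = 0.00014). The edgeR call was lost without 0.5 h replicate 1 (adjusted p = 0.38) or replicate 2 (0.27) and without 48 h replicate 1 (0.15) or replicate 2 (0.16), while the log2 fold change stayed between 1.12 and 1.32 in those fits. At 24 h its log2 fold change was 1.28 ± 0.27 (edgeR adjusted p = 0.11). Hadhb was 3.07-fold the 0.5 h level at 24 h, with a log2 fold change of 1.62 ± 0.30 (edgeR adjusted p = 0.085, DESeq2 adjusted p = 1.1e-05). Leaving out 24 h replicate 1 or 2 brought its edgeR adjusted p to 0.024 or 0.034, and leaving out 0.5 h replicate 1 or 2 to 0.72 or 0.46. At 48 h the log2 fold change of Hadhb over 0.5 h was 1.08 ± 0.29 (edgeR adjusted p = 0.073). The 2 libraries at 24 h differed by 1.11-fold for Hadha and 1.25-fold for Hadhb.

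**Figure D2:**
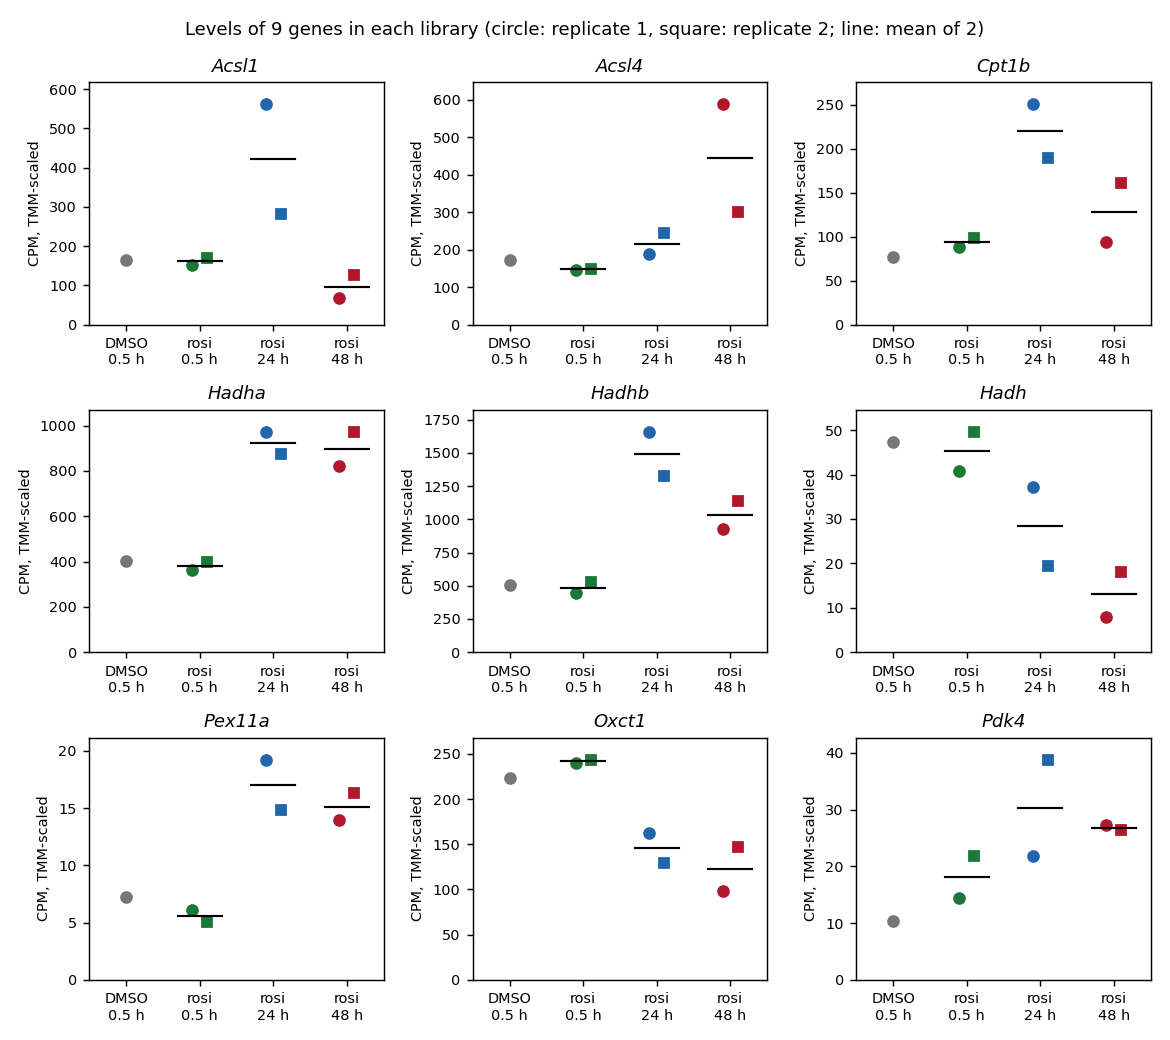
TMM-scaled CPM of 9 genes in each library (circles are replicate 1, squares replicate 2, lines the mean of 2 libraries), by group. Hadha and Hadhb lie at 824 CPM or more in all 4 later libraries, Acsl1 and Cpt1b peak at 24 h, Acsl4 is highest at 48 h, and Oxct1 and Hadh are lower in the later libraries than in those at 0.5 h.

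Hadh had lower levels at the later times. It encodes the hydroxyacyl-CoA dehydrogenase of medium and short chains, and had 47.2 CPM with DMSO, 40.9 and 49.6 CPM at 0.5 h, 37.1 and 19.5 CPM at 24 h, and 7.94 and 18.1 CPM at 48 h. The groups at 0.5, 24 and 48 h did not overlap. The log2 fold change at 48 h against 0.5 h was -1.81 ± 0.50 (edgeR adjusted p = 0.076, DESeq2 adjusted p = 0.0075). Cardiomyocyte markers were lowest in the same library as Hadh, 48 h library 1, and their part in this value was not tested.

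The acyl-CoA dehydrogenases open each round, and their chain lengths differ. Acadl, for long chains, had 288 CPM with DMSO, 282 and 319 CPM at 0.5 h, 852 and 506 CPM at 24 h, and 435 and 461 CPM at 48 h. All 4 later libraries were above the 3 libraries at 0.5 h, and the log2 fold change at 24 h was 1.18 ± 0.32 (edgeR adjusted p = 0.15, DESeq2 adjusted p = 0.013). Acadvl, for very long chains, had 118 CPM with DMSO, 128 and 123 CPM at 0.5 h, 239 and 147 CPM at 24 h, and 83.0 and 148 CPM at 48 h. Its 24 h libraries lay above those at 0.5 h, with a log2 fold change of 0.62 ± 0.36 (edgeR adjusted p = 0.45), and the 48 h libraries lay on either side.

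Acadm, for medium chains, had 130.2 CPM with DMSO, 127 and 132 CPM at 0.5 h, 242 and 76.5 CPM at 24 h, and 53.7 and 88.0 CPM at 48 h. The 24 h libraries lay on either side of the 0.5 h level, 3.16-fold apart, and the 48 h libraries lay below it. Its log2 fold change at 24 h was 0.30 ± 0.51 (edgeR adjusted p = 0.82) and -0.76 without 24 h replicate 1. Acads, for short chains, likewise had 119.5 and 38.7 CPM at 24 h, against 49.2 and 52.4 CPM at 0.5 h. Acaa2, the mitochondrial 3-ketoacyl-CoA thiolase, had 261 and 88.5 CPM at 24 h, against 117 and 161 CPM at 0.5 h. Acad9, which is also needed to assemble respiratory complex I, stayed between 50.6 and 71.3 CPM in all libraries, with both later groups below the 0.5 h one. Echs1 had 0 counts in every library, which allows up to 0.106 CPM in the library with the most counts and up to 0.279 CPM in that with the fewest, counting error only. Whether reads of this gene could be counted under its row was not tested, so the 0 counts do not show that Echs1 was silent.

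Enzymes that deal with double bonds also had high values at 24 h, in library 1 above all. Decr1, the dienoyl-CoA reductase needed for polyunsaturated chains, had 117 CPM with DMSO, 96.8 and 118 CPM at 0.5 h, 327 and 158 CPM at 24 h, and 138 and 205 CPM at 48 h. All later libraries were above those at 0.5 h, with a log2 fold change of 1.17 ± 0.40 at 24 h (edgeR adjusted p = 0.23). The enoyl-CoA isomerases Eci1 and Eci2 were high in 24 h library 1, at 119 and 245 CPM, while 24 h library 2, at 52.4 and 116 CPM, lay within the range of the 0.5 h rosiglitazone libraries, 51.1 to 74.4 and 111 to 129 CPM.

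Etfa, the α subunit of the electron transfer flavoprotein, had 189 CPM with DMSO, 186 and 239.7 CPM at 0.5 h, 472 and 342 CPM at 24 h, and 366 and 369.6 CPM at 48 h. It lay above the 0.5 h libraries at both later times, with log2 fold changes of 0.93 ± 0.29 at 24 h (edgeR adjusted p = 0.19) and 0.79 ± 0.29 at 48 h (edgeR adjusted p = 0.15). Etfdh, the oxidoreductase that hands the electrons to ubiquinone, had 93.0 CPM with DMSO, 94.8 and 97.2 CPM at 0.5 h, 269 and 153 CPM at 24 h, and 87.5 and 126 CPM at 48 h. The log2 fold change of Etfdh was 1.14 ± 0.34 at 24 h against 0.5 h (edgeR adjusted p = 0.18) and -0.99 ± 0.34 at 48 h against 24 h (edgeR adjusted p = 0.48). Etfb, the β subunit, had 270.0 and 103 CPM at 24 h, against 82.1 and 109.7 CPM at 0.5 h, so that 24 h library 2 lay within the 0.5 h range.

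Of the 6 peroxisomal genes tested at 24 h against 0.5 h, 2 were higher without overlap (Pex11a and Abcd3), against 21.2% of all genes. Another 2 were lower (Acox3 and Abcd2), against 28.9%. With so few genes, these counts do not set the role apart from all genes. Pex11a, which promotes peroxisome division and is a known PPARα target in rodents, had 7.25 CPM with DMSO, 6.09 and 5.02 CPM at 0.5 h, 19.2 and 14.8 CPM at 24 h, and 14.0 and 16.3 CPM at 48 h. All 4 later libraries lay above the 3 at 0.5 h. For Pex11a the log2 fold change was 1.62 ± 0.41 at 24 h (edgeR adjusted p = 0.14, DESeq2 adjusted p = 0.0093) and 1.44 ± 0.41 at 48 h (edgeR adjusted p = 0.084, DESeq2 adjusted p = 0.014).

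Acox3, an acyl-CoA oxidase of branched chains, had 22.6 CPM with DMSO, 21.0 and 22.9 CPM at 0.5 h, 9.66 and 11.2 CPM at 24 h, and 15.4 and 18.3 CPM at 48 h. It was lowest at 24 h, with a log2 fold change of -1.08 ± 0.35 against 0.5 h (edgeR adjusted p = 0.21), and its 48 h libraries lay between the other groups. Abcd2, a transporter of very long chain acyl-CoA, had 8.13 CPM with DMSO, 4.02 and 3.16 CPM at 0.5 h, and 0.905 to 2.16 CPM in the later libraries, and the authors' deposited table called it lower at 0.5 h against DMSO, by a log2 fold change of -0.87 with an adjusted p of 0.0011. In the edgeR fit that difference was -1.18 ± 0.94 (adjusted p = 1). Abcd3 stayed between 86.2 and 107 CPM and Hsd17b4, the D-bifunctional protein, between 130.5 and 181 CPM in all libraries. Ehhadh, the L-bifunctional protein, had at most 3.82 CPM and 0 counts in 24 h library 2.

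Of the ketone genes, Oxct1 alone had an unadjusted edgeR p below 0.05. It encodes the transferase that activates acetoacetate, the committed step of ketone use outside the liver. Oxct1 had 223 CPM with DMSO, 239 and 244 CPM at 0.5 h, 163 and 129 CPM at 24 h, and 98.0 and 146 CPM at 48 h. All later libraries were below the 3 at 0.5 h, with log2 fold changes of -0.73 ± 0.29 at 24 h (edgeR adjusted p = 0.29) and -0.98 ± 0.29 at 48 h (edgeR adjusted p = 0.094, DESeq2 adjusted p = 0.022). Acat1, the acetoacetyl-CoA thiolase, had 155 and 58.9 CPM at 24 h and 46.0 and 94.8 CPM at 48 h, against 114 and 129 CPM at 0.5 h. Bdh1, the hydroxybutyrate dehydrogenase, had 28.0 and 19.0 CPM at 48 h, against 13.2 and 16.5 CPM at 0.5 h, a log2 difference of 0.66 ± 0.40 (edgeR adjusted p = 0.38).

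Pdk4, the kinase that shuts off pyruvate dehydrogenase when fatty acids are burned and a known PPAR target, had its lowest value in the DMSO library, and its libraries differed by 1.77-fold at 24 h and by 1.03-fold at 48 h. Pdk4 had 10.4 CPM with DMSO, 14.4 and 21.7 CPM at 0.5 h, 21.9 and 38.8 CPM at 24 h, and 27.2 and 26.4 CPM at 48 h. Every rosiglitazone library lay above the DMSO one, and every 24 h and 48 h library above the 0.5 h ones. None of these steps passed the edgeR test: the log2 fold change was 0.79 at 0.5 h against DMSO (edgeR adjusted p = 1), 0.75 ± 0.40 at 24 h against 0.5 h (edgeR adjusted p = 0.41) and 0.57 ± 0.40 at 48 h against 0.5 h (edgeR adjusted p = 0.45). The authors' deposited table called Pdk4 higher at 0.5 h against DMSO, with a log2 fold change of 0.61 and an adjusted p of 0.03. The file headers list the 2 splits of a library as separate columns beside those results.

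Over the 7 libraries, the genes outside the list whose log2(CPM + 1) was most like that of Pdk4, among 10467 genes with a mean of at least 5 CPM, were Gfod2 (Pearson r = 0.989), Fam214b (0.981), Ttc19 (0.961), Ccdc181 (0.959) and Actr1b (0.959). These values describe 7 libraries that share their groups, and they were picked as the highest of many.

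Of the uncoupling proteins, carriers of the inner mitochondrial membrane, Ucp2 had 205 CPM with DMSO, 166 and 196 CPM at 0.5 h, 265 and 106 CPM at 24 h, and 58.3 and 115 CPM at 48 h. The 24 h libraries lay on either side of the 0.5 h ones and the 48 h libraries below them, with a log2 fold change of -1.07 ± 0.49 at 48 h against 0.5 h (edgeR adjusted p = 0.25). Ucp3, the muscle form and a neighbour of Ucp2 in the RefSeq annotation of the GRCr8 assembly, was at the detection limit. It had 8 counts in the DMSO library, 3 and 0 at 0.5 h, 5 and 1 at 24 h, and 10 and 1 at 48 h, and was not tested.

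The 2 libraries of a group differed in most genes of the list, and at the later times the cardiomyocyte markers differed in the same direction. At 24 h, 32 of the 37 genes were higher in replicate 1 than in replicate 2 (86.5%, against 49.9% of all genes), by a median of 1.62-fold. All 12 cardiomyocyte markers were higher in the same library, by a median of 4.92-fold. The 5 genes that were not higher there were Acsl4, Acad9, Acox3, Hsd17b4 and Pdk4. At 48 h, 31 of the 37 were higher in replicate 2 (83.8%, against 52.8%), by a median of 1.29-fold, as were all 12 cardiomyocyte markers, by 3.43-fold. The 6 others were Acsl4, Acsl6, Cpt1a, Abcd2, Bdh1 and Pdk4. At 0.5 h of rosiglitazone, 32 of the 37 were higher in replicate 2 (86.5%, against 51.9%), but by a median of 1.13-fold, and 6 of the 12 cardiomyocyte markers were. At 24 and 48 h, most markers of other cell types differed in the same direction as well, though some sets were nearer an even split. At 24 h, 5 of 5 endothelium, 7 of 8 macrophage and 6 of 7 fibroblast markers were higher in replicate 1. So were 4 of 6 smooth muscle and pericyte markers. At 48 h, 6 of 6 smooth muscle and pericyte and 6 of 7 fibroblast markers were higher in replicate 2. So were 5 of 8 macrophage and 3 of 5 endothelium markers.

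**Figure D3:**
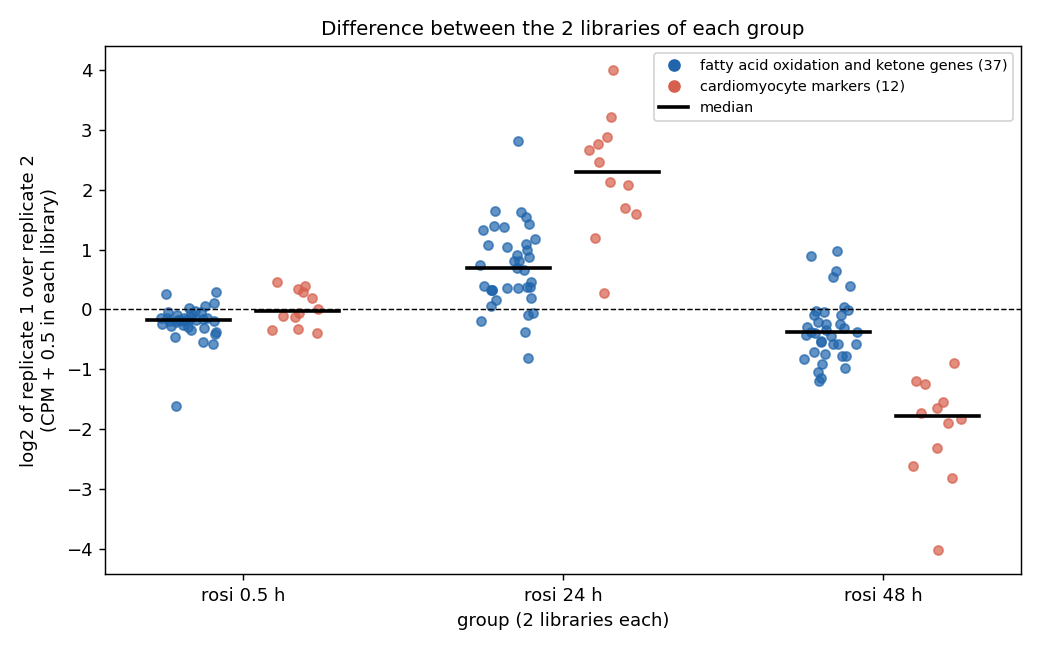
Log2 ratio of replicate 1 over replicate 2 within each rosiglitazone group for the 37 fatty acid oxidation and ketone genes (blue) and the 12 cardiomyocyte markers (red), with the median of each as a bar. Both sets lie mostly above 0 at 24 h (medians 0.70 and 2.30) and mostly below 0 at 48 h (medians -0.37 and -1.78).

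The fall of the cardiomyocyte markers over time is set beside the list here. At 48 h against 0.5 h, 10 of the 12 cardiomyocyte markers fell by the edgeR test, with a median log2 fold change of -4.40 over the 12, and the median over the 37 genes was 0.13. Of those 37, 11 were lower at 48 h without overlap (29.7%, against 34.4% of all genes). They were Acsl1, Cpt2, Acadm, Acad9, Hadh, Acaa2, Acox3, Abcd2, Acat1, Oxct1 and Ucp2. Markers of other cell types were called lower there too, 3 of 6 for smooth muscle and pericytes (Myh11, Tagln and Cnn1). So were 3 of 5 for endothelium (Cdh5, Kdr and Tek) and 2 of 8 for macrophages (Csf1r and C1qc). Of the 7 fibroblast markers, 0 were called lower and 1, Dcn, higher. Of all genes, 4.62% were called lower and 1.97% higher. The count of 10 was 1 without either 0.5 h rosiglitazone library, 0 without 48 h replicate 1 and 2 without 48 h replicate 2. Myh6, a cardiac myosin heavy chain, had 10.2 and 33.0 CPM at 48 h, against 1212 and 1209 CPM at 0.5 h. In those 48 h libraries Hadha was at 824 and 972 CPM. At 24 h the summed markers were 13773 and 3202 CPM, against 15661 and 14897 CPM at 0.5 h. Of the 12 markers, 5 were lower at 24 h without overlap (against 28.9% of all genes) and 0 higher (against 21.2%). In the list, 18 genes, Hadhb and Cpt1b among them, were higher at 24 h without overlap (48.6%, against 21.2%). Another 5 were lower (13.5%, against 28.9%). Of the defining fat cell markers, Adipoq had counts in 1 of the 7 libraries, at 0.0352 CPM, and Retn in 1, at 0.186 CPM. Plin1 had counts in 4 libraries, at most 1.22 CPM, while Cidea, at 11.7 to 42.1 CPM, and Fabp4, at 7.80 to 64.7 CPM, were detected in all 7. The part of cell composition in the values of the list was not tested.

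A further 85 genes of the same pathways and their regulators were examined, of which 80 were in the tables and 76 were tested. Acad11 alone was called higher and Ppargc1a alone lower, both at 48 h against 0.5 h, and none was called in the other 3 comparisons. The median log2 fold change of the 76 was 0.33 at 24 h against 0.5 h, and 0.04 at 48 h against 0.5 h. Of all genes, 1.97% were called higher and 4.62% lower at 48 h against 0.5 h. The count of these 76 called there moved when single libraries were left out, and so did the share of all genes called. Acad11, an acyl-CoA dehydrogenase, had 64.5 and 64.9 CPM at 48 h, against 14.7 and 24.6 CPM at 0.5 h, and rose to 3.29-fold that level (log2 fold change 1.72 ± 0.34, edgeR adjusted p = 0.031). It had 43.7 and 48.1 CPM at 24 h, above the 0.5 h libraries and below the 48 h ones. Its edgeR adjusted p was 0.27 without 0.5 h replicate 1, 0.10 without 0.5 h replicate 2, 0.14 without 48 h replicate 1 and 0.099 without 48 h replicate 2.

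Ppargc1a, which encodes the coactivator PGC-1α that drives mitochondrial genes together with the PPAR and ERR receptors, had 12.4 CPM with DMSO, 14.5 and 20.7 CPM at 0.5 h, 4.24 and 2.26 CPM at 24 h, and 1.90 and 1.86 CPM at 48 h. Each later library was below the 3 libraries at 0.5 h. Ppargc1a fell at 48 h, with a log2 fold change of -3.22 ± 0.57 against 0.5 h (edgeR adjusted p = 0.022), and at 24 h the value was -2.44 ± 0.54 (edgeR adjusted p = 0.11). The call at 48 h was lost without 0.5 h replicate 1 (adjusted p = 0.13) or replicate 2 (0.17) and without 48 h replicate 1 (0.13) or replicate 2 (0.087), with log2 fold changes between -3.48 and -2.95 in those edgeR fits.

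The PPAR receptors did not pass the test. Pparg, the receptor that rosiglitazone binds, had 1.31 CPM with DMSO, 1.44 and 2.47 CPM at 0.5 h, 5.03 and 3.24 CPM at 24 h, and 2.42 and 1.58 CPM at 48 h. Its log2 fold change at 24 h was 1.08 ± 0.85 (edgeR adjusted p = 0.56). Ppara stayed between 3.77 and 11.3 CPM, with overlap between the groups at each step, and Ppard between 30.7 and 54.5 CPM. Ppard was higher in both 24 h libraries, at 54.5 and 48.0 CPM, than at 0.5 h, at 35.0 and 30.7 CPM (log2 fold change 0.64 ± 0.29, edgeR adjusted p = 0.34).

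In the other lists no gene passed the threshold. Genes with the smallest unadjusted p in each are given, with further genes of the pyruvate dehydrogenase complex and its regulators. Slc25a42, the mitochondrial coenzyme A carrier, had 59.8 and 50.8 CPM at 24 h and 40.2 and 45.2 CPM at 48 h, against 20.8 and 14.4 CPM at 0.5 h (log2 fold change 1.65 ± 0.32 at 24 h, edgeR adjusted p = 0.092). Slc27a4, a fatty acid transport protein, had 79.2 and 66.9 CPM at 24 h, against 34.4 and 37.8 CPM at 0.5 h. Both genes lay higher at 24 h without overlap.

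In the peroxisome, Cat, the catalase that removes the hydrogen peroxide of peroxisomal oxidation, had 342 and 373 CPM at 24 h, against 173 and 149 CPM at 0.5 h (log2 fold change 1.15 ± 0.25, edgeR adjusted p = 0.11). Acaa1b, a peroxisomal thiolase close in sequence to Acaa1a, so that its counts may be shared between the copies, had 45.9 and 73.8 CPM at 48 h, against 23.7 and 27.1 CPM at 0.5 h. Among ketone genes, Slc16a1, the carrier of lactate and ketone bodies, had 561 and 339 CPM at 48 h, against 151 and 185 CPM at 0.5 h (log2 fold change 1.42 ± 0.35, edgeR adjusted p = 0.054).

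Of the genes of the pyruvate dehydrogenase complex and its regulators, none was called at 48 h, and their values went in both directions. Pdha1, the catalytic α subunit, had 125 and 104 CPM at 48 h, against 233 and 245 CPM at 0.5 h (log2 fold change -1.06 ± 0.25, edgeR adjusted p = 0.052). Pdk2, another kinase of the complex, had 9.88 and 11.1 CPM at 48 h, against 26.7 and 37.2 CPM at 0.5 h (log2 fold change -1.61 ± 0.40, edgeR adjusted p = 0.056). For both genes the 48 h libraries were below all others. Pdp1, a phosphatase that reactivates the complex, had 24.9 and 27.5 CPM at 48 h, against 64.0 and 81.3 CPM at 0.5 h (log2 fold change -1.47 ± 0.36, edgeR adjusted p = 0.056). Pdhx, a binding protein of the complex, had 78.9 and 79.0 CPM at 48 h, against 38.6 and 42.7 CPM at 0.5 h (log2 fold change 0.96 ± 0.26, edgeR adjusted p = 0.071). Pdhb, the β subunit, had overlapping libraries, with a log2 fold change of -0.05.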

How the data were processed

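The authors deposited 3 tables of raw read counts per gene, as whole numbers, with their own log2 fold changes and p-values, per the file headers. Builds Rnor_6.0 and hg19 and the tools HTSeq, DESeq2, cutadapt 1.11 and FastQC 0.11.5 are listed, per the submitters' processing notes. For the aligner and the strand setting: not given in the sources used here. Every table held 33005 entries for 32545 genes, 460 of them repeats, and each gene was used once.

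Splits of a library, which a chi-square test over genes could not tell apart, were added to give 7 libraries. edgeR 4.0.16 in R 4.3.3 was run on the counts with TMM scaling and filterByExpr, by the robust quasi-likelihood test in a single fit of the 4 groups (3 residual degrees of freedom, common biological coefficient of variation 0.514). The single DMSO library is thereby assumed to vary like the other groups. The code was tested on simulated data. Alternatives were DESeq2 1.42.0 as test or for size factors, no filter, a mean of at least 5 CPM, only the groups compared, a replicate block, splits as replicates, and leaving out each library.

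The members, companion genes and marker lists were chosen with earlier results of these data known. Values in every library are given for members with an unadjusted edgeR p below 0.05 in any comparison and for Cpt1a, Cpt1b, Acadm, Acadvl, Hadha, Hadhb, Pdk4, Ucp2 and Ucp3. Of each companion list, genes past the threshold, or else the 2 with the smallest unadjusted p, are named, with Ppara, Ppard, Pparg and Ppargc1a. In the pyruvate dehydrogenase list, Pdp1, Pdhx and Pdhb are named beyond this rule. The result of 1 companion gene is not reported here. Other values, and counts without overlap, are descriptions.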

Additional observations from a re-analysis of the deposited data

How the results depend on the processing

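With 2 libraries per group, counts of calls turned on single libraries and on the test. The cause was not tested unless fewer samples or genes are the alternative itself. Over all genes, edgeR called 0 at 0.5 h against DMSO, 15 at 24 h against 0.5 h, 0 at 48 h against 24 h and 1031 at 48 h against 0.5 h. In the same order DESeq2 called 2, 1212, 492 and 2547, splits counted as separate replicates, which they are not, gave 78, 5629, 2890 and 6943, and fits of only the groups compared gave 174 at 0.5 h, 0 at 24 h against 0.5 h and 2733 at 48 h against 0.5 h. Without the filter on low counts 1 was called at 0.5 h, 334 at 24 h against 0.5 h and 19 at 48 h against 24 h.

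Of the fatty acid oxidation and ketone genes, edgeR called 0 at 24 h against 0.5 h, 0 at 48 h against 24 h and 2 at 48 h against 0.5 h. DESeq2 called 9, 1 and 6, splits gave 20, 14 and 16, no filter gave 1 at 24 h, and only the groups compared gave 7 at 48 h against 0.5 h. A mean of at least 5 CPM left 5 genes, not 10, below the DMSO library at 0.5 h. That filter drops Acsl6, Slc22a5 and Abcd2 and also resets the scaling of the libraries, and the part of each was not tested. The alternatives for companion genes and markers were chosen after seeing the data. Of the 2 companion genes called at 48 h against 0.5 h, the count was 7 without a filter and 7 with a mean of at least 5 CPM, 18 by DESeq2, 44 with splits and 17 with only the groups compared. Cardiomyocyte markers called there numbered 4 of 12 without a filter.

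The replicate numbers did not pair the libraries: deviations of replicate 1 from the group means correlated at -0.08, 0.06 and -0.12 between groups. With the replicate block, edgeR called 1 gene at 24 h against 0.5 h and 407 at 48 h against 0.5 h, with 0 genes of the list, 0 companion genes and 3 cardiomyocyte markers among them.

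Leaving out 1 library at a time gave 0 to 1008 genes called at 24 h against 0.5 h, 12 to 2706 at 48 h against 0.5 h and 0 to 509 at 48 h against 24 h. For genes of the list the ranges were 0 to 7, 0 to 7 and 0 to 3, for companion genes at 48 h against 0.5 h 0 to 17, and for cardiomyocyte markers 0 to 10. Genes of the list without overlap numbered 9 to 27 higher and 10 to 28 lower at 0.5 h against DMSO, 18 to 29 higher and 5 to 14 lower at 24 h against 0.5 h, 2 to 14 higher and 8 to 27 lower at 48 h against 24 h, and 12 to 23 higher at 48 h against 0.5 h. The shares of all genes without overlap moved too, from 29.6% to 49.1% higher and 30.4% to 49.6% lower at 0.5 h against DMSO. At 24 h against 0.5 h they were 20.8% to 38.6% higher and 28.9% to 45.7% lower. Between 48 h and 24 h they were 14% to 33.7% higher and 14.8% to 38.9% lower. For 48 h against 0.5 h, the share higher was 27.4% to 39.6%. The median log2 fold change of the list ranged from -0.77 to 0.05 at 48 h against 24 h and from -0.07 to 0.32 at 48 h against 0.5 h.

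Signs changed for Acadm at 24 h against 0.5 h (-0.76 to 0.88), Ucp2 at 24 h (-0.78 to 0.53, with -0.09 without 0.5 h replicate 1), Cpt1a at 24 h (-0.18 to 0.13), Cpt1a at 48 h against 0.5 h (-0.55 to 0.13) and Acadvl at 48 h against 0.5 h (-0.59 to 0.20). Cpt1a at 24 h was also 0.00 with splits, 0.02 with only the groups compared, 0.01 without DMSO replicate 1 and 0.07 without 0.5 h replicate 2. With DESeq2 size factors, Acsl4 and Hadha kept their calls at 48 h against 0.5 h. Acsl6, Ehhadh and Ucp3 had low counts, with 0 in 1 library each, which was never the library with the fewest total counts.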
